A study of Drosophila melanogaster with 2 samples.

Results

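Nf-YA peaks whose summits lay inside introns a short way from a start site are described here. A peak was a member when its summit fell in a gene body, in no annotated exon, and more than 500 but at most 2000 bp from the nearest annotated start site on either strand. Of the 3354 peaks of the pooled list, 499 (14.9%) met this rule. The series is a chromatin immunoprecipitation with sequencing (ChIP-seq) experiment on whole Drosophila melanogaster embryos of the strain Nf-YA-GFP, collected 0 to 24 h after laying, in 2 biological replicates of 1 group. The embryos carried a transgene for Nf-YA joined to eGFP, and an anti-GFP antibody pulled down the fusion protein. What drives the transgene is not given in the sources used here. Chromatin was sonicated, with fragments of 200 to 800 bp. Embryos of all stages and tissues were pooled, so a peak cannot be assigned to a tissue or stage, and no second genotype or treatment was there to compare.

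NF-Y is a transcription factor of 3 subunits that binds the CCAAT box. The NF-YA subunit makes the contacts specific to the CCAAT sequence, and the NF-YB and NF-YC subunits form a dimer that resembles the histones H2A and H2B. NF-Y is best known from promoters, where the CCAAT box lies shortly upstream of the start. Introns close to a start site are a common place for enhancers and for inner promoters, from which shorter transcripts of the same gene begin.

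Summit sequences are shown for 5 of the 7 tallest members, to give a view of such sites. Each is the summit with 50 bp on either side, read from the RefSeq copy of the reference (dm6), on the plus strand, with every CCAAT or its reverse complement ATTGG in capitals.
CG11050, chr2L:6612664-6612764: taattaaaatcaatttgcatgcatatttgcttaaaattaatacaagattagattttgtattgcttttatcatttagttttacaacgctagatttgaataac
CG32772, chrX:4910322-4910422: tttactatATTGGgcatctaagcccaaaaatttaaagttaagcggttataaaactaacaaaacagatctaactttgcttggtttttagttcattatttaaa
Trl, chr3L:14759450-14759550: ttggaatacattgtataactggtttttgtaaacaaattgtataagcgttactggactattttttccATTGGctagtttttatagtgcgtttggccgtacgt
NFAT, chrX:13640459-13640559: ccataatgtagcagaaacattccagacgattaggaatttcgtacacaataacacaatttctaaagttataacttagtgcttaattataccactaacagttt
chif and Hyls1, chr2L:16351161-16351261: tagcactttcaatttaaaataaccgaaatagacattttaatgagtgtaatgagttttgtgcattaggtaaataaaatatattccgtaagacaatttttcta
The windows at CG32772 and Trl hold CCAAT, and those at CG11050, NFAT and chif do not. All 5 windows are rich in A and T.

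The longer NF-Y motif was taken as CCAAT with 2 purines before it and C or G and then a purine after it, on either strand. It lay within 50 bp of the summit in 8 members. These 8 sites are shown with 16 bp on each side, on the strand that reads CCAAT, with the 9 bases of the motif in capitals.
Trl, chr3L:14759498-14759538, minus: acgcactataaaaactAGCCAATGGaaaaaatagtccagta
vnd and spdi, chrX:589121-589161, minus: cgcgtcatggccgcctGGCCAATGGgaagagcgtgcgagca
Trl and CG42507, chr3L:14756172-14756212, plus: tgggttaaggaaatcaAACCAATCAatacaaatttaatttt
Evi5, chrX:11453038-11453078, minus: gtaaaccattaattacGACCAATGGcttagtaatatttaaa
Snx27, chrX:5724878-5724918, minus: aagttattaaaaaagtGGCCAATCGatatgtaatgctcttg
hng3, chr3L:748618-748658, plus: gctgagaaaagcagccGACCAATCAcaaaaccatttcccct
MTF-1, chr3L:9436038-9436078, plus: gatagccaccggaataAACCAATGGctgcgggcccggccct
Tmem214, chr2L:10967479-10967519, plus: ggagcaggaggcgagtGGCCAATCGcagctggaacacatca
Of the 8, 4 sites end in GG, 2 end in CA and 2 end in CG after the CCAAT core.

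The 499 summits lay in 447 host genes, that is, genes whose body contains the summit, of which 433 were protein-coding. For 453 members there was 1 host gene, and the rest lay where genes overlap. A host is named by position alone, and the data do not tie a peak to the control of that gene. The distance to the nearest start ran from 504 to 1990 bp with a median of 1011 bp. For each summit the intron of lowest order over all transcripts of its hosts was taken, and the shortest where several tied. These introns had a median length of 4961 bp. Arm 3R held 129 members, X 111, 3L 100, 2R 87, 2L 70 and chromosome 4 held 2.

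Peak heights are the signal values deposited by the authors. Their scale is not stated, so they serve here to rank and describe peaks of 1 list. Over the members it ran from 2.29 to 977, with quartiles of 67.1, 88.3 and 129. Most members had the same width: 445 of 499 (89.2%) were 330 bp wide, with a median signal of 84.2. The other 54 were narrower, had a median signal of 274, and all had a thresholded peak in each replicate.

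Some members overlapped another peak of the pooled list. There were 450 members with no overlapping peak, 23 that were taller than the peak they overlapped and 26 that were lower, here called shoulders. The shoulders had a median signal of 9.06, against 92.6 for the members with no overlap. All 23 members with a signal under 30 were shoulders, with another summit 199 to 299 bp away. In a replicate's list a shoulder was matched to the entry with the nearest summit, which could be that of the taller neighbour. Where a result was also computed without the shoulders and moved, both values are given below.

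Each member was read in the replicates through its overlap with their own thresholded lists, requiring 1 shared bp. Of the 499 members, 213 (42.7%, exact Clopper-Pearson 95% interval 38.3 to 47.2, counting error only) overlapped a thresholded peak of each replicate. The share over all 3354 pooled peaks was 40.5%. A further 45 members overlapped a peak of replicate 1 alone, 98 of replicate 2 alone, and 143 (28.7%, 24.7 to 32.8) overlapped none. The conservative list of the series, made from both replicates, had a peak at 419 of the members (84.0%).

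The ranked lists, which reach below the threshold, gave a replicate value for nearly every member. Replicate 1 had an entry at 496 members, with a median signal of 42.5, and replicate 2 at all 499, with a median of 52.2. Over the 496 members in both lists, Spearman's rho was 0.678 and Pearson's r of the log2 signals was 0.684. Both include shoulders, whose replicate value could be that of the taller neighbour, and were not computed without them. These coefficients describe how peaks that share 2 libraries and a threshold line up, and peaks are not replicates. The summits were a median of 13 bp away in replicate 1 and 17 bp away in replicate 2.

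Among the 213 members in both thresholded lists, 168 had the higher signal in replicate 2, and the ratio of replicate 2 to replicate 1 had a median of 1.25. The ratio ran from 0.443 to 31.9 over these members and from 0.497 to 2.84 over the 198 that overlapped no other peak. Members in both lists had a median pooled signal of 145, and members in neither had a median of 64.0 and reached at most 108.

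**Figure D1:**
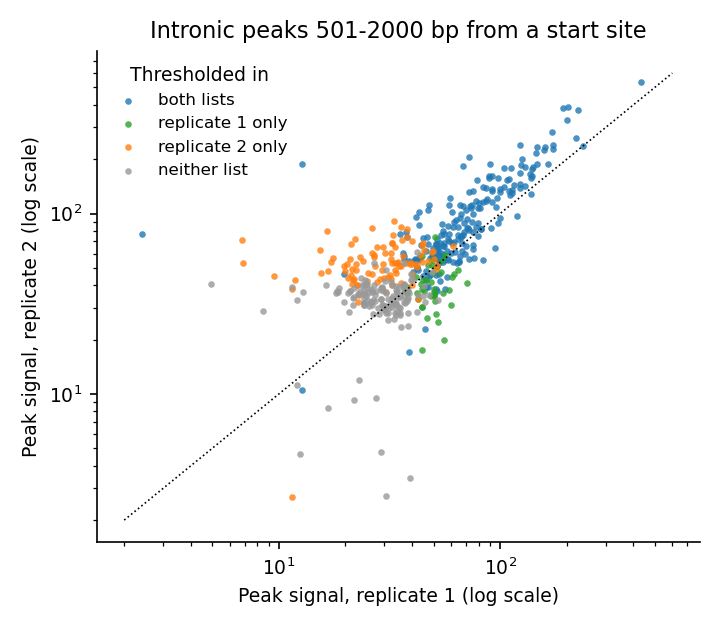
Peak signal of each member in replicate 1 (x axis) and replicate 2 (y axis), both on a log scale and in the authors' deposited units, coloured by the thresholded lists that hold the peak; the dotted line marks equal values. Of the 213 members in both lists, 168 lie above the line, and of the 198 among them that overlapped no other peak, 155 do. The few points at low values far from the line include shoulders of taller peaks.

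Summits were denser in introns near start sites than in introns farther away. The intron in the members' distance range covered 11.4 Mb, which gives 43.7 summits per Mb (exact Poisson 95% interval 39.9 to 47.7). Intron over 2000 bp from any start covered 41.4 Mb and held 658 summits, or 15.9 per Mb (14.7 to 17.2). The ratio was 2.75 (exact binomial test, two-sided, adjusted p = 4.93e-59 by Benjamini-Hochberg over 8 comparisons). The members' density exceeded that of far introns on each of the 6 arms. It was 33.8 against 18.1 per Mb on 2L and 50.4 against 18.6 on X, and on chromosome 4 it rested on 2 members and 1 far summit.

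The density fell with distance within the members' range. Introns up to 1000 bp from a start held 246 members, or 55.8 per Mb (49.0 to 63.2). Those over 1000 and up to 1500 bp away held 147, or 39.0 per Mb (33.0 to 45.9), and those over 1500 and up to 2000 bp away held 106, or 32.6 per Mb (26.7 to 39.4). The intervals of the nearest and the middle band did not overlap, and those of the middle and the outer band did. For scale, all sequence within 500 bp of a start held 86.0 summits per Mb (81.8 to 90.4). Peak height changed less along the way, with median signals of 93.8, 84.2 and 86.0 in the 3 bands.

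**Figure D2:**
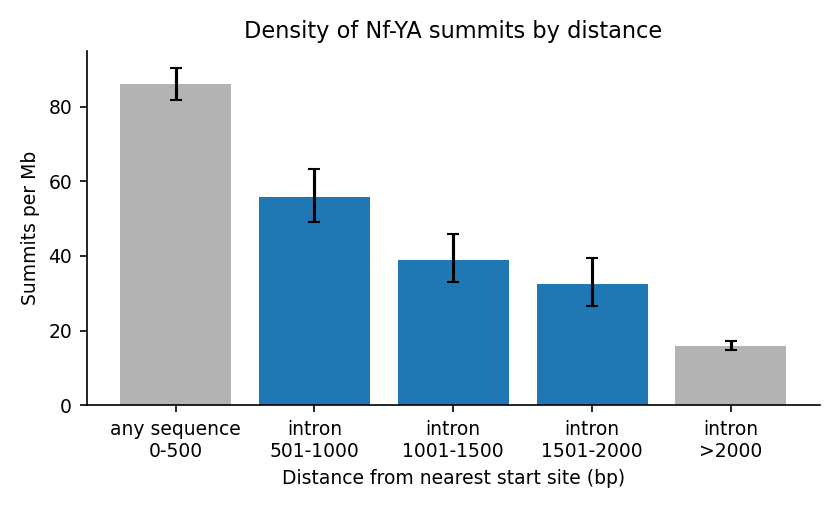
Summits per Mb (y axis) by distance from the nearest start site (x axis, bp), with exact Poisson 95% intervals as error bars; blue bars are the members and grey bars are sequence nearer or farther than the members. The bars step down from 86.0 within 500 bp to 55.8, 39.0 and 32.6 in the members' 3 bands and 15.9 in far introns.

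The members fell on both sides of the starts of their own host genes. Of the 499, 286 lay downstream of the nearest start, which belonged to a host, at 45.9 per Mb of such intron (40.7 to 51.5). Another 137 lay upstream of a start of a host, that is, between an outer and an inner start of 1 gene. These 137 made up 27.5% of the members on 16.6% of the bases, or 72.3 per Mb (60.7 to 85.4). The remaining 76 were nearest to a start of another gene that does not contain them, at 23.03 per Mb (18.1 to 28.8). The 3 intervals did not overlap.

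The 3 positions differed less in peak height than in density. Median signals were 87.2 downstream of a host start, 93.5 upstream of an inner start and 80.3 near the start of another gene. The shares in both replicates were 41.3%, 48.2% and 38.2%. Of the 76 members near another gene, the start belonged to a protein-coding gene in 39, a noncoding RNA gene in 27, a tRNA gene in 7 and a snoRNA gene in 3. A member in an intron of drk, which encodes the adaptor that links receptor tyrosine kinases to Ras, was of this kind, since its nearest start was that of mars, 844 bp away.

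First introns held most of the members. An intron that is the first of some transcript held 403 of them (80.8%, 77.0 to 84.1), and such introns made up 64.5% of the bases in the distance range. That is 54.7 members per Mb of first intron and 23.6 per Mb of other introns. First introns follow the first exon of a transcript, so intron order and distance from a start are not independent in these counts.

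The tallest member, with a signal of 977, lay in an intron of 140 bp of CG11050 at chr2L:6612584-6612875, 1027 bp downstream of the start. Its signal was 433 in replicate 1 and 534 in replicate 2, the highest of any member in each, and CG11050 also had a summit within 500 bp of a start. The next, in the first intron of CG32772 at chrX:4910256-4910488, reached 608, with 225 and 374 in the replicates. Neither gene is assigned a role here.

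Genes for DNA-binding and chromatin proteins hosted several of the members that followed. A summit where the genes HmgZ and HmgD overlap had a signal of 587 (203 in replicate 1, 387 in replicate 2) and lay 558 bp upstream of a start of HmgZ. Both genes encode HMG-box proteins that bend DNA. Adf1, which encodes a transcription factor first found at the Adh promoter, held one of 559.9 (193 and 384). Trl, which encodes the GAGA factor, held one of 533 (201 and 330.3), 1538 bp upstream of an inner start that it shares with CG42507. All 3 were higher in replicate 2.

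NFAT, the fly relative of the vertebrate NFAT factors, held a member of 480.3, with 219 in replicate 1 and 261 in replicate 2. The chif locus, which encodes the fly relative of the kinase activator Dbf4 and overlaps Hyls1, held one of 465, and here the replicates were equal to 3 digits, at 237 each. The forkhead gene CHES-1-like held one of 374 (158 and 224), and its nearest start was that of lncRNA:CR43287. The last of the 15 tallest, at 353 (164 and 187), lay in trh, which encodes the bHLH-PAS factor that specifies the tracheal placodes.

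The other tall members lay in genes of several kinds. The summit in cno, which encodes a protein that links adherens junctions to actin, reached 402, with 173 and 227 in the replicates. norpA, the gene of the phospholipase C of phototransduction, held one of 381 (147 and 234). CG3726 at 449, CG9837 at 419 and lncRNA:CR44810 at 353 were also among the 15, and each of them was higher in replicate 2. Of the 15 tallest members, only the chif member was not higher in replicate 2.

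The 8 members with the longer NF-Y motif spanned the range of heights. The tallest was the Trl member of 533, whose AGCCAATGG began 14 bp past the summit at chr3L:14759514-14759522, centred 18 bp from it. Trl also held a second, at 108, with AACCAATCA centred 14 bp from the summit. That peak was thresholded in replicate 2 (75.9) and not in replicate 1 (32.7).

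The vnd member, at 121, had 64.8 in replicate 1 and 54.3 in replicate 2 and was thresholded in both. vnd encodes a homeodomain factor that patterns the ventral neuroectoderm. Its GGCCAATGG was centred 4 bp from the summit. The other 5 were lower, with signals of 89.8 in Evi5, 88.2 in Snx27, 82.4 in hng3, 59.0 in MTF-1 and 58.4 in Tmem214.

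None of these 5 was thresholded in both replicates. Snx27, which encodes a sorting nexin, and MTF-1, which encodes the metal-responsive transcription factor, were thresholded in replicate 1 alone. The hng3 member, which lay 754 bp upstream of the start of emc, was also in replicate 1 alone, with 55.5 there and 19.9 in replicate 2. The Evi5 member was thresholded in replicate 2 alone and the Tmem214 member in neither.

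Most members lay in genes that held no other. Of the host genes, 374 held 1 member, 54 held 2, 11 held 3, 5 held 4 and 3 held 5. Members in 1 gene share their annotation and are not independent of each other.

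Tlk, which encodes the Tousled-like kinase, held 5, with signals of 104, 76.4, 64.5, 61.6 and 30.9. Of these the lowest was a shoulder of the peak beside it. CG1677 and lncRNA:CR44357 overlap and held the same 5, from 66.4 to 249.6. The nearest starts of these 5 belonged to Dok, CBP, unc-119 and brk, and brk encodes a repressor of Dpp target genes. The tallest of them, at 249.6, lay 781 bp downstream of the start of Dok, with 97.7 in replicate 1 and 158 in replicate 2.

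NFAT held 4 members, of which the tall one lay 703 bp from another of 148. CHES-1-like also held 4, at 374, 267, 114 and 85.7. Doa, which encodes a LAMMER kinase, held 4 at 95.4, 88.3, 51.9 and 29.4, and CG32264 held 4 at 90.9, 87.9, 80.6 and 16.7, and in both genes the lowest was a shoulder. Svil, the gene of the actin-binding protein supervillin, held 4 at 149.6, 96.8, 81.9 and 58.3.

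Peaks lay close to both distance limits on either side. Just inside the inner limit lay members in CG14434, at 504 bp with a signal of 159.6, and in hoe1, at 506 bp with 81.4. Just outside it lay intronic peaks in CG5854, at 499 bp with 127, and in CG43658, at 500 bp with 107. The members closest to the outer limit lay in pnt, at 1970 bp with 160.4, and in RhoU, at 1990 bp with 73.8. Just past it lay peaks in trbl, at 2004 bp with 63.6, and in Hr3, at 2005 bp with 61.8.

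The members were then set against promoter peaks, with summits within 500 bp of a start, and against far-intron peaks, over 2000 bp from any start. The first measure was replicate support. The share in both replicates was 42.7% (38.3 to 47.2) for the members and 46.4% (43.9 to 48.9) for promoter peaks, and this difference did not pass the threshold (Fisher's exact test, two-sided, adjusted p = 0.247). For far-intron peaks the share was 32.1% (28.5 to 35.8), which was lower than that of the members (adjusted p = 8.78e-04, Fisher's exact test). The call ended in the own list of replicate 1, where the difference was 8.20 percentage points (adjusted p = 0.0769, Fisher's exact test). Each peak of that list overlaps replicate 1 in any case. Support there was therefore the share that overlapped a thresholded peak of replicate 2, which is not the same measure. The call also ended among the taller peaks, where the difference was 6.42 points in the upper 50% by signal (adjusted p = 0.381, Fisher's exact test).

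Peak height followed the same order. The signal lay above the median of all pooled peaks, 87.4, in 51.3% of the members, 55.2% of promoter peaks and 42.9% of far-intron peaks. The difference from far-intron peaks passed Fisher's exact test (adjusted p = 0.0137), and that from promoter peaks did not (adjusted p = 0.247). In the list of replicate 2 alone the 2 calls changed places, by Fisher's exact test, with differences of 7.31 points from far-intron peaks (adjusted p = 0.0804) and -10.8 points from promoter peaks (adjusted p = 0.00236).

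Height and replicate support went together, so support was also read within classes of equal signal. In the top class, set by quartiles of the members, 99.2% of the members, 96.6% of promoter peaks and 94.2% of far-intron peaks were in both replicates. In the second class the shares were 59.7%, 51.5% and 55.6%, and in the third they were 6.35%, 6.69% and 3.0%. In the bottom class they were 6.4%, 8.11% and 3.78%, with promoter peaks above the members in these last 2 classes. The 8 members of the bottom class that were in both replicates were all shoulders. With overlapping peaks merged and the quartile groups set anew, 0 of 119 members in the lowest group were in both replicates. In the third group 13 of 118 were. These merged values are for the members alone, so they give no order against promoter or far-intron peaks. The classes were set from the data, and no test was made on them.

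For some members the host gene had a summit at a promoter as well. Another summit lay within 500 bp of a start of the host for 177 members (35.5%, 31.3 to 39.9) and for 223 far-intron peaks (33.9%, 30.3 to 37.7). This difference did not pass the threshold (Fisher's exact test, two-sided, adjusted p = 0.657), and its sign turned when promoters were taken as 250 bp (-1.89 points) or the outer limit as 1500 bp (-1.11 points). The sign also turned among hosts with 1 or 2 start positions, at 24.5% of the members and 26.9% of far-intron peaks. Among the members the share was 31.7% in the nearest band, 37.4% in the middle and 41.5% in the outer band. Trl, cno and sim were among the hosts with such a summit, and CG32772, Adf1, norpA and trh were among those without.

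**Figure D3:**
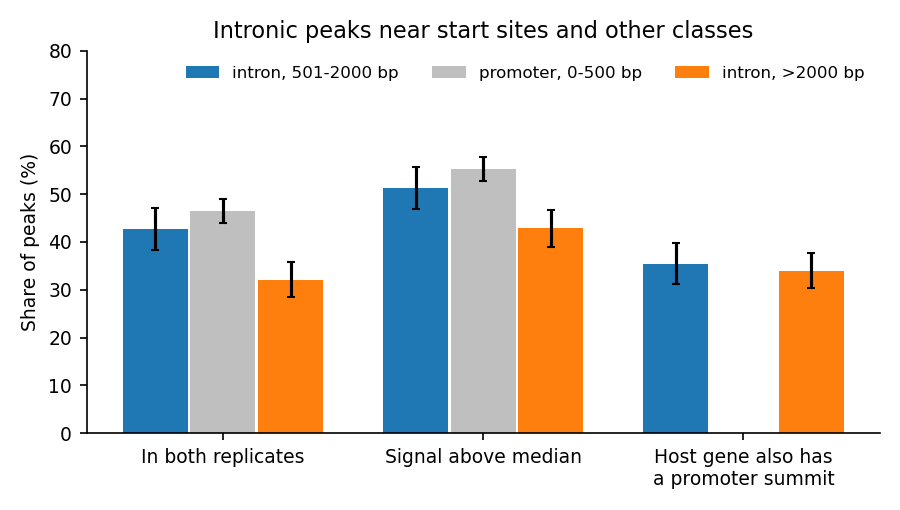
Share of peaks (y axis, %) that were in both replicates, had a signal above the pooled median, or lay in a host gene that also had a promoter summit, for the members (blue), promoter peaks (grey) and far-intron peaks (orange), with exact 95% intervals; the last measure is not drawn for promoter peaks. The members sit between the other classes for the first measures (42.7% and 51.3%) and near the far-intron peaks for the last (35.5% and 33.9%).

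The summits were poorer in G and C than the sequence beside them. GC content was compared between the summit with 50 bp on either side and a window of equal length centred 500 bp farther from the nearest start. It averaged 36.0% at the summits and 41.0% in the flanks, a difference of -5.03 percentage points (SD 14.9 over the 499 members). GC was lower at the summit in 321 members, higher in 167 and equal in 11 (exact sign test, two-sided, p = 2.88e-12). The flank centre lay in an exon for 68 members, and for the 431 with both windows centred in intron the difference was -3.32 points (p = 7.83e-07, exact sign test).

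The dip in GC content differed with peak height. From the tallest 25% of the members to the lowest, the mean at the summit was 32.9%, 33.7%, 36.0% and 41.3%. The mean differences from the flank were -7.52, -7.79, -5.73 and 0.888 points. All 26 shoulders fell in the lowest 25%, and alone they had a GC content of 46.3% at the summit and 36.0% in the flank. When overlapping peaks were merged, which left 473 members, the differences by quartile group were -7.75, -7.55, -6.12 and -2.13 points, so the lowest 25% no longer had a higher GC at the summit than in the flank.

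Promoter and far-intron peaks also had lower GC at the summit in the upper 3 of the 4 signal classes. In the top class the difference was -7.55 points for the members, -7.19 for promoter peaks and -9.37 for far-intron peaks, with GC at the summit of 32.9%, 35.0% and 32.7%. In the bottom class the differences were 0.887, 1.25 and -0.958 points. All shoulders among the members fell in that class, and with overlapping peaks merged the lowest quartile group of the members had -2.13 points. Merged values were not computed for promoter and far-intron peaks, so the bottom class gives no order. Single members went both ways. The window at CG11050 had 21.8% GC against 66.3% in its flank, while trh had 59.4% against 46.5%. The flank at CG11050 was centred outside the 140 bp intron that held the summit.

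**Figure D4:**
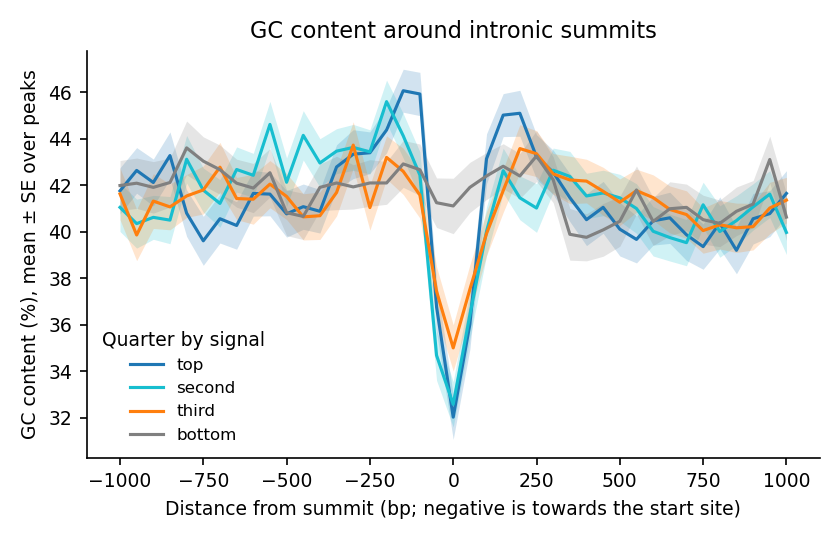
Mean GC content (y axis, %) in 51-bp windows every 50 bp around the summits of the members (x axis, bp, negative values towards the nearest start site), by quartile group of peak signal, with the SE over peaks as shading. At the summit the means are 32.0%, 32.6%, 35.0% and 41.1% from the top to the lowest 25%, and at 100 and 150 bp on either side the top group lies above the others, with 45.9% against 41.6% to 42.7% at -100 bp. The lowest 25% includes all 26 shoulders.

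Motifs were looked for in the same summit and flank windows, on both strands. Of 27 motifs, the TATA box (TATAAA) was the only one whose share differed between summits and flanks, in 109 of 499 summit windows (21.8%) against 66 flank windows (13.2%). McNemar's exact test gave an adjusted p of 0.0158 over the 27 motifs. In all windows of the same length tiled over introns in the distance range the share was 14.4%. Promoter summits had TATAAA in 19.0% and far-intron summits in 19.8%, so a share above the tiled windows was not particular to the members. With flank centres kept to introns the difference was 6.03 points in place of 8.61, and the adjusted p was 0.275 by the same exact test. No motif passed with windows of 25 or 100 bp on each side, with an outer limit of 1500 bp or in the list of replicate 2 alone, so the TATA box call ended there too. TATA box shares went with height and with low GC: from the tallest to the lowest 25% they were 27.2%, 25.8%, 21.6% and 12.8%. TATAAA consists of A and T alone, and the part of base composition in its share was not tested.

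The NF-Y motif was rare at these summits. The longer form lay at 8 members (1.60%, 0.695 to 3.13) and in 6 flank windows (1.20%), a difference that did not pass McNemar's exact test (adjusted p = 0.929). It lay in 1.11% of the 113251 tiled windows, and at 84 of all pooled summits (2.50%). Promoter summits had it in 2.69% (1.95 to 3.62) and far-intron summits in 1.37% (0.627 to 2.58), and neither differed from the members by Fisher's exact test (adjusted p = 0.247 and 0.808). By quartile group of signal from the top, 1, 3, 2 and 2 members had it.

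The CCAAT pentamer on its own was found at 102 members (20.4%, 17.0 to 24.3) and in 69 flank windows (13.8%). The difference just missed the threshold (McNemar's exact test, adjusted p = 0.0698), and passed it with overlapping peaks merged (adjusted p = 0.0229). With flank centres kept to introns it was 5.10 points in place of 6.61 (McNemar's exact test, adjusted p = 0.275). The tiled windows had CCAAT in 19.9%, nearly as often as the summits, so the flanks were the lower of the 3. Promoter summits had CCAAT in 19.0% and far-intron summits in 17.9%. A window without CCAAT says only that these letters are not in it.

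**Figure D5:**
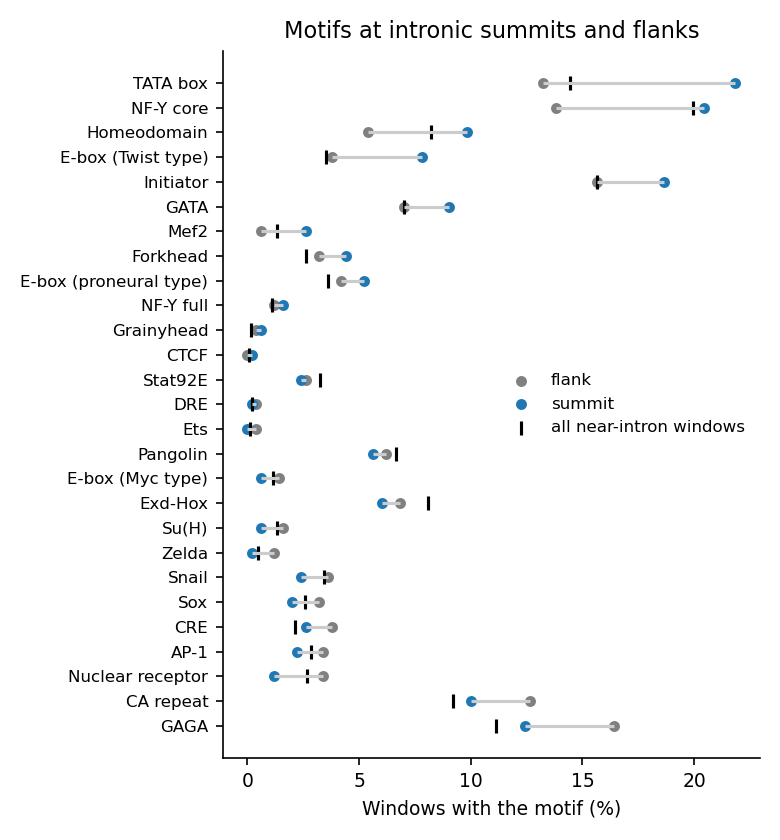
Share of windows of 50 bp on either side of the centre with each of 27 motifs (x axis, %) at the members' summits (blue) and in the flanks 500 bp farther from the start (grey), with the share in all windows tiled over introns in the distance range as a black mark. The TATA box, at 21.8% against 13.2%, is the only motif that passed McNemar's exact test, and the longer NF-Y motif lies between 1.11% and 1.60% in all 3. The NF-Y core is CCAAT, and the Twist type of E-box is CATATG.

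A pair of other motifs came close to the threshold. The E-box CATATG, bound by Twist-like bHLH factors, lay at 7.82% of the members and 3.81% of the flanks, and the homeodomain core TAATTA at 9.82% and 5.41%. Both had an adjusted p of 0.0698 (McNemar's exact test) and of 0.0455 with overlapping peaks merged. With flank centres kept to introns, both had an adjusted p of 0.275 by McNemar's exact test. CATATG lay in 3.27% of promoter summits, 3.19% of far-intron summits and 3.54% of tiled windows. TAATTA lay in 8.97%, 8.21% and 8.22% of the same. The GAGA element GAGAG was less common at the summits (12.4%) than in the flanks (16.4%) but missed the threshold of the same exact test (adjusted p = 0.358). It lay in 14.7% of promoter summits, 10.9% of far-intron summits and 11.1% of tiled windows, so the summits were low only against their flanks and promoter summits. The Zelda motif CAGGTAG lay at 1 summit and in 6 flanks.

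Which genes held members was described with 18 lists, against a background of 4.81%. This is the share of the 9005 protein-coding genes with any intron in the distance range that held a member there (433 genes). Host genes had far more such intron than other genes, with medians of 3660 and 352 bp, so a list of genes with long introns has more room for a summit. List shares are therefore given with the median bases of intron per gene, which was 387 bp over all 9005 genes, and no test was made on them.

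Of the transcription factor lists, the BTB factors had the highest share. Members lay in 7 of 13 (Trl, br, fru, ken, lola, psq and rib, median signal 80.8), with 3557 bp of intron per gene. In br, the ecdysone-induced Broad gene, which overlaps Mur2B, the signal was 128, with 50.8 in replicate 1 and 74.4 in replicate 2, and only replicate 1 was thresholded. Of the nuclear receptors 3 of 18 held members (2975 bp). EcR, the ecdysone receptor gene, held one of 143 that lay 1301 bp from a tRNA gene, with 66.9 and 68.2 in the replicates. Hr3, which overlaps CG12912, CG46321 and lncRNA:CR46322 there, held one of 86.2, with 44.8 and 42.8. This member was thresholded in replicate 1 alone and was nearest to the start of lncRNA:CR46322.

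The bHLH list had 4 of 29 genes (sim, sima, tai and trh, 1368 bp) and the highest median signal of the 18 lists, 266. sim, the master gene of the ventral midline, held a member of 271, with 130 and 143 in the replicates. Of 81 homeobox genes, 7 held members (1408 bp). The 2 tallest were in pros, a fate determinant of neural daughter cells, at 243 (113 and 135), and in zfh1, at 199 (77.5 and 117). The pros summit was nearest to the start that KP78a and KP78b share, 585 bp away. The list of zinc finger, forkhead, Sox, T-box, Runx and GATA factors had 2 of 52, Sox102F at 140.2 and bowl at 69.7, a share of 3.85% on 1319 bp of intron per gene. The bowl member was in neither thresholded list.

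Of the signalling lists, the EGFR and FGF genes had the highest share, 9 of 25 (Krn, S, drk, edl, pnt, rho, ru, sty and ths), with 1852 bp of intron per gene and a median signal of 128. The list spans ligands and their processing (Krn, ths, S, rho, ru), the adaptor drk, the antagonist sty, and the Ets factor pnt with its regulator edl. edl held a member of 243 (113 and 130.4) and drk one of 225 (83.8 and 139.8), both narrower than 330 bp and thresholded in each replicate.

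The TGF-beta and JAK-STAT list had 4 of 24 genes (1246 bp). The BMP receptor gene wit held a member of 226 (92.1 and 133) and Mad, the gene of the Smad of the same pathway, one of 208 (75.3 and 133). The Wnt and Hedgehog list had 4 of 30 (1676 bp), with the Hedgehog co-receptor gene boi at 103 (53.1 and 46.4) and the receptor gene ptc at 64.1 (29.9 and 30.8). The ptc member was in neither thresholded list and was nearest to the start of lncRNA:CR44281. Of 14 Notch genes (2198.5 bp) 1 held a member, neur, which encodes a ubiquitin ligase for Notch ligands, at 169 (70.2 and 105).

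The tissue lists had lower shares than the BTB and EGFR lists. Axon guidance and adhesion genes had 6 of 55 (3395 bp), with NetB, a Netrin gene, at 180 (75.7 and 99.9) and kirre at 119 (51.1 and 67.6). The NetB member was nearest to the start of hog. Ion channel and synapse genes had 4 of 54 (2872 bp). The potassium channel genes KCNQ and Irk1 held members of 342 (147 and 189) and 224 (92.0 and 137), and that in KCNQ was nearest to the start of mlt. Muscle genes had 3 of 33 (1611 bp), and Msp300, the gene of a giant nuclear anchoring protein, held a pair at 239 and 61.4. The lower of this pair was in neither thresholded list and was nearest to the start of sncRNA:128. Of 14 glial genes (1517 bp) 3 held members, with pnt at 160.4 (75.5 and 78.7) and Gs2, a glutamine synthetase gene, at 152 (64.3 and 83.7).

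The remaining lists gave 8 of 47 for small GTPases, their regulators and actin (2148 bp) and 6 of 40 for RNA-binding proteins (1839 bp). The ecdysone response list had 4 of 17 (3299 bp) and the chromatin list 3 of 41 (443 bp). In these, tsr, the cofilin gene, held a member of 181 (81.0 and 107) and RhoGEF64C one of 142 (55.8 and 77.2). The RhoGEF64C member was nearest to the start of CG13713. ps and shep, for RNA-binding proteins, held members of 154 and 118. The tallest member of the ecdysone list lay in ImpL2, at 322 (124 and 186), and Psc, a Polycomb group gene, held one of 106 (51.5 and 50.5). The Psc member was thresholded in replicate 1 alone. None of 27 cytosolic ribosomal protein genes held a member, and these had 102 bp of intron per gene in the range.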

How the data were processed

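ChIP-seq peak lists of 1 group with 2 biological replicates were analysed. Each peak's signal was deposited by the authors on a scale that is not stated. Per the records deposited with the samples, the lists are in dm6 and came from alignments of the replicates and a control. How reads were aligned and peaks called is not given in the sources used here. Read counts were not analysed here, so library depth is unknown. In the ranked lists of the whole series, 16 columns belong to unnamed inputs and were not used.

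Summits on 6 arms of the pooled thresholded list (3354 peaks) were placed in the Ensembl release 115 annotation of BDGP6.54, with transposable elements left out. The replicates' own lists held 1793 and 2157 peaks on these arms, and the conservative list 3091. Start sites, introns and bases of each class came from that annotation, and sequence from the RefSeq copy of release 6, whose arm lengths contain all peaks. A replicate's signal at a member was that of the overlapping ranked entry with the nearest summit. Classes were compared with exact binomial and Fisher's exact tests, two-sided, adjusted by the Benjamini-Hochberg method over 8 comparisons with a threshold of 0.05. Motifs were compared with McNemar's exact test, adjusted over 27 motifs, and GC content with an exact sign test. Peaks are not replicates of a condition, so these tests describe 1 list of peaks.

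Genes were named by a rule: the 15 tallest members in both replicates, members with the longer NF-Y motif, genes with 4 or more members, the 2 tallest members on each gene list and the members nearest each limit. One gene that the rule names is not reported here. Sequence on arm 2R is not shown. The members, the lists and the tests were chosen with earlier results of these data known. Alternatives were the conservative list, each replicate's own list, the taller peaks, other distances, windows, flanks, overlaps and motif forms. Those with merged peaks, intronic flanks, the tallest 25% or hosts with 1 or 2 start positions were added after seeing the data. The code was tested on simulated data. The tools were scipy 1.17.1 for the tests, pandas 2.3.3 and numpy 2.4.6 for the tables and matplotlib 3.10.9 for the figures, under Python 3.11.15.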

Additional observations from a re-analysis of the deposited data

How the results depend on the processing

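No paired analysis was possible because the series has 1 group. Of 108 alternative values, 84 kept their direction and their side of the threshold, or stayed within 1.5 times for a count. The greater density in near than in far introns and the lower GC at the summits kept both under each alternative run. The own list of replicate 2 or of replicate 1 alone gave 329 or 262 members, and the upper 50% by signal gave 256. With 1 replicate's list, each peak overlaps its own replicate, so support there was overlap with the list of the other replicate. The difference from promoter peaks was then -1.62 to 3.22 points in support and -10.8 to -2.06 in the share above the median signal. That from far-intron peaks was 8.20 to 12.3 points in support, 7.31 to 16.01 in signal and -1.09 to 0.819 in NF-Y motifs. In the upper 50% by signal, the support difference from far-intron peaks was 6.42 points, and in the top 25% it was 4.55, and 2.68 from promoter peaks. CCAAT alone was 1.42 points more common at members than at promoter summits. Members' hosts had a promoter summit less often than those of far-intron peaks with an outer limit of 1500 bp (-1.11), promoters of 250 bp (-1.89) or hosts with 1 or 2 start positions (-2.41). The number of motifs that differed from flanks was 1, and 0 to 1 with 1 replicate's list. It was 2 with the conservative list, the upper 50% by signal or flanks towards the start. It was 0 with an outer limit of 1500 bp, windows of 25 or 100 bp on each side or flanks in introns, and 4 with overlapping peaks merged. The cause of these changes was not tested. Library depth is unknown, so a peak missing from a replicate's list cannot be told apart from one lost to depth.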
